A study of Rattus norvegicus with 28 samples.

Results

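Imipramine and Prozac, given to rats after traumatic brain injury, were compared by setting the 3 TBI+Imipramine gene expression arrays against the 3 TBI+Prozac arrays. These 6 arrays were chosen by their titles from the 14 gene expression arrays of the series, which holds 28 arrays in all. Each array was made from the whole hippocampus of 1 adult male Sprague-Dawley rat that had received a severe fluid percussion injury. Both drugs were injected at the same dose per body weight. They were given 1 h after injury, and tissue was taken 24 h after injury. The other groups are used here as a reference only. They are Sham (prepared but not injured, 2 arrays), TBI (injured, no antidepressant, 3 arrays) and TBI+Zoloft (injured and given sertraline, 3 arrays). A single dose and a single time were studied, so the values say nothing of other doses or of longer treatment. Whole tissue was measured, in which fewer cells of a type and less RNA per cell cannot be told apart.

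Imipramine is a tricyclic antidepressant. It blocks the transporters that take noradrenaline and serotonin back into nerve endings, and it also blocks histamine, muscarinic and alpha-1 adrenergic receptors. Prozac (fluoxetine) is a selective serotonin reuptake inhibitor, which acts mainly on the serotonin transporter. In the hippocampus, fluid percussion injury is known for loss of neurons, activation of microglia and astrocytes and entry of blood leukocytes. The comparison asks whether drugs of these 2 classes left the injured hippocampus with different transcript levels.

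Levels are log2 signals, each array being scaled by the upper quartile (75th percentile) of its detected probes, so that a difference of 1 is a doubling. TBI+Prozac replicate 1 was hybridised on the slide that held the 3 TBI arrays, whereas TBI+Prozac replicates 2 and 3 shared a slide with all TBI+Imipramine and TBI+Zoloft arrays. Results are therefore given with and without that array, and the comparison without it lies within 1 slide. The 6 arrays had 16672 to 18196 of 30367 probes above background. Across all probes, TBI+Prozac replicate 1 deviated from the other arrays of its group by a median of 0.172, against 0.156 to 0.172 for replicates 2 and 3 and 0.125 to 0.191 for the TBI+Imipramine arrays, but it had 528 probes that deviated by over 1, against 328 and 343. Hippocampal neuron markers were present on all 6 arrays. The synaptic gene Nrgn, for example, lay between 3.19 and 3.74 and the pyramidal cell transcription factor Neurod6 between 1.06 and 1.46.

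At the threshold, 1 of 17322 probes tested, or 0.00577%, was called between the drugs (limma, Benjamini-Hochberg adjusted p below 0.05). The probe was above background in TBI+Imipramine only and passed the filter on dim probes through that group, and the count was 0 both without the filter and among probes above background on all 14 arrays. It belongs to C9h6orf141, an open reading frame with no established function that is named after its human counterpart. The next smallest adjusted p was 0.227 (limma). Without TBI+Prozac replicate 1, 1 probe again passed, also 0.00577%, but it was a probe of Ccdc167, a gene of a coiled-coil protein, and no call was shared. At an unadjusted p below 0.05, 945 probes (5.46%) were higher and 252 (1.45%) lower in TBI+Imipramine, and without TBI+Prozac replicate 1 these counts were 584 (3.37%) and 120 (0.693%), of which 513 in all were common to both fits. The excess of probes on the higher side depended on how the arrays were scaled. The higher side held 78.9% of the probes at an unadjusted p below 0.05 with the scaling used here. It held 56.3% when the median of each array was set to 0, 56.4% with the 75th percentile of all probes and 58.5% in the authors' series table. After quantile normalization it held 47.8%, and 52.8% when normexp background correction came before quantile normalization.

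The data bound the differences at most probes. The median difference over all probes was 0.06, the median standard error was 0.18 and the 95% interval of the difference, which is per probe and not adjusted for the number of probes, lay within 1 log2 unit of 0 at 85.3% of probes and within 2 units at 97.9%. Changes of less than that size could not be detected at many probes with 3 rats a group, and the missing calls do not show that the drugs acted alike. An absolute difference of over 1 was measured at 268 probes, 149 of them above background on all 6 arrays.

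**Figure D1:**
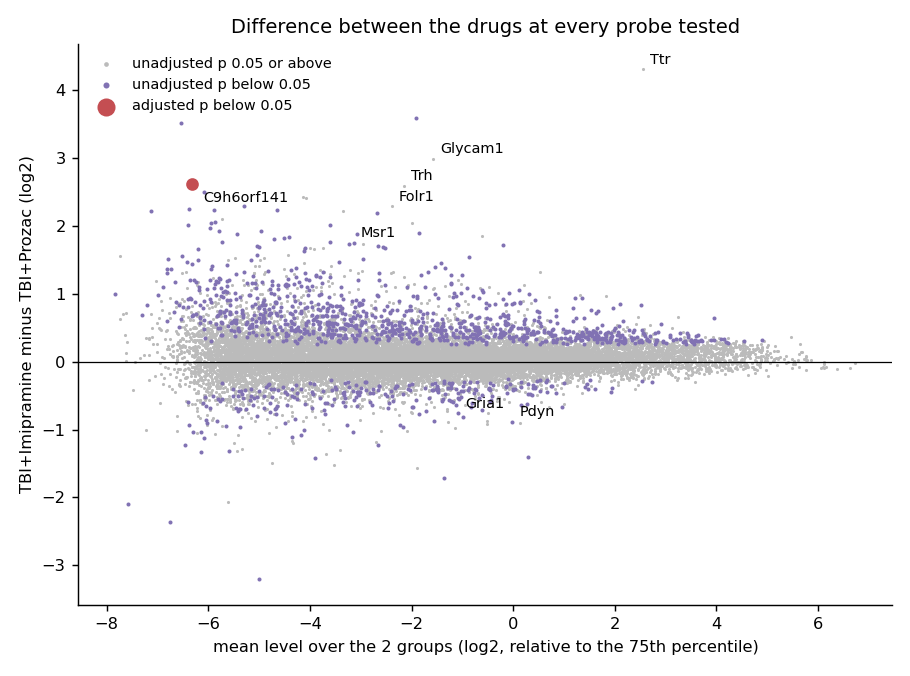
Difference between TBI+Imipramine and TBI+Prozac (log2, vertical axis) against the mean level over both groups (log2 relative to the 75th percentile, horizontal axis) for the 17322 probes tested. Grey and purple points are probes at or above and below an unadjusted p of 0.05, and the red point is the 1 probe of C9h6orf141 past the adjusted threshold; Ttr, Glycam1, Trh and Folr1 have large differences that did not pass it.

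C9h6orf141 (NCBI gene 688459) had 2 probes on the array. At the probe that passed, the TBI+Imipramine arrays read -5.21, -4.47 and -5.36 and the TBI+Prozac arrays -7.51, -8.00 and -7.37. The groups did not overlap, and this probe was above background on the 3 TBI+Imipramine arrays and on none of the other 11 arrays. Since the TBI+Prozac signal was below background, only a bound can be given for the difference, at least 2.997-fold higher in TBI+Imipramine (limma adjusted p = 0.0480, which rests on values below background). The same probe read -6.31, -6.11 and -6.95 in TBI, -6.45, -6.63 and -7.50 in TBI+Zoloft and -8.19 and -8.53 in Sham, all below the TBI+Imipramine arrays. The second probe was above background on all 14 arrays. It read -1.59, -1.28 and -1.91 in TBI+Imipramine and -3.68, -3.84 and -3.81 in TBI+Prozac, again with no overlap, and the difference of 2.19 (95% interval 1.22 to 3.16) did not pass the threshold (limma adjusted p = 0.655). Its TBI arrays, at -2.81, -2.17 and -3.27, lay between the drug groups with no overlap. TBI+Imipramine differed from TBI by 1.16 (limma adjusted p = 0.180) and TBI+Prozac by -1.03 (limma adjusted p = 0.473), so that neither passed. The call at the first probe was narrow. It was lost in 16 of 21 alternative settings, with adjusted p from 0.00391 to 0.293 (limma), and the signal was higher in TBI+Imipramine in all of them. It was lost on leaving out TBI+Imipramine replicate 1 (0.221) or 2 (0.283) or TBI+Prozac replicate 1 (0.131), 2 (0.227) or 3 (0.0879), and it held only without TBI+Imipramine replicate 3.

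The promoter windows of C9h6orf141 and of the opioid peptide gene Pdyn are shown because these are the gene that passed the test and the neuropeptide gene with the lowest difference. Each holds the 250 bases before the annotated start in RefSeq build GRCr8, at chr9:27521216-27521465 on the plus strand and chr3:137366504-137366753 on the minus strand, and is printed 5′ to 3′ on the strand of the gene. Capitals mark the motifs CCAAT and TATAAA on either strand, so that CCAAT on the other strand reads ATTGG.
C9h6orf141: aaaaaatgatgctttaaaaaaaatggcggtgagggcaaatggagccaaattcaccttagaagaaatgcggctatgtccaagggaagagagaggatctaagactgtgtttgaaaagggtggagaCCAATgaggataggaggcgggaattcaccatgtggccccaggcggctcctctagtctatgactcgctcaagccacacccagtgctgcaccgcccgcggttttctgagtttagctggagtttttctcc
Pdyn: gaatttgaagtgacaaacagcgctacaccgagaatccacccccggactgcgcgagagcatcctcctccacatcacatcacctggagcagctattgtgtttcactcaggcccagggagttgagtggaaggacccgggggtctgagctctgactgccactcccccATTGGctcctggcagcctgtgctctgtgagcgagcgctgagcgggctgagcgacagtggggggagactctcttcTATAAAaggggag
C9h6orf141 had 1 match to CCAAT and none to TATAAA, and Pdyn had 1 match to each. Of 33469 rat windows of the same length, 34% held CCAAT and 12.9% held TATAAA.

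Among the genes with the smallest unadjusted p, Msr1 came next. It encodes a scavenger receptor of macrophages. Msr1 read -2.23, -1.94 and -2.61 in TBI+Imipramine and -3.73, -4.23 and -4.07 in TBI+Prozac, with no overlap. The difference was 1.75 (95% interval 1.17 to 2.34, limma adjusted p = 0.227), and 1.89 without TBI+Prozac replicate 1. Msr1 passed with array quality weights (limma adjusted p = 0.00391) and in no other alternative. TBI arrays read -3.67, -4.74 and -4.50, TBI+Zoloft arrays -3.36, -3.53 and -3.61 and Sham arrays -8.42 and -7.86. The Sham arrays were below all others, but they had a slide of their own, so that slide and group cannot be told apart in any comparison with Sham. TBI+Imipramine was above TBI by 2.05 (limma adjusted p = 0.00695) and above TBI+Zoloft by 1.24 (limma adjusted p = 0.0283), where TBI+Prozac was above TBI by 0.29 (limma adjusted p = 0.744). The TBI arrays lay on another slide than the TBI+Imipramine arrays, so slide and group cannot be told apart in the difference of 2.05.

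Of the probes above background on all 6 arrays and without overlap, those of a further 8 genes had the smallest unadjusted p on the higher side, none past the threshold. Arfgef2, an exchange factor for ARF proteins in vesicle traffic, read -1.47, -1.51 and -1.89 in TBI+Imipramine and -2.52, -2.54 and -2.28 in TBI+Prozac, a difference of 0.82 (95% interval 0.47 to 1.17). Its TBI+Zoloft arrays, at -1.79, -1.73 and -1.47, lay within the range of the TBI+Imipramine arrays, and its TBI arrays, at -2.78, -2.58 and -2.42, overlapped the TBI+Prozac arrays. RT1-Bb, a beta chain of the class II histocompatibility complex, differed by 1.82 (0.81 to 2.82), but another of its probes, above background on only 1 TBI+Imipramine array, differed by -2.06, so that no direction is given for this gene. Echdc3, of fatty acid metabolism, differed by 0.78 (0.38 to 1.19), Clic1, an intracellular chloride channel, by 0.60 (0.26 to 0.94), Rpl12, a ribosomal protein, by 0.83 (0.35 to 1.32) and Col7a1, a collagen of anchoring fibrils, by 0.90 (0.37 to 1.44). In Ccdc167 and the muscle membrane gene Sgcb the TBI+Prozac arrays disagreed among themselves. Ccdc167 read -3.46, -3.31 and -2.74 in TBI+Imipramine against -3.51, -4.96 and -4.78 in TBI+Prozac, where replicate 1 lay close to the TBI+Imipramine arrays, and its difference was 1.24 with that array and 1.70 without it (limma adjusted p = 0.0448). Second probes of Ccdc167 and Sgcb differed by only 0.07 and by -0.31.

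By the same rule 10 genes were named on the lower side, none past the threshold, and they include genes of synapses and of neuropeptides. Gria1 encodes the GluA1 subunit of AMPA receptors, the main fast glutamate receptors. It read -1.35, -1.35 and -1.71 in TBI+Imipramine and -0.73, -0.76 and -0.65 in TBI+Prozac. The groups did not overlap, and the difference was -0.76 (95% interval -1.14 to -0.37), or -0.76 without TBI+Prozac replicate 1. Its TBI arrays (-1.55, -1.41, -1.03), Sham arrays (-1.63, -1.20) and TBI+Zoloft arrays (-1.97, -1.83, -1.57) were all below the TBI+Prozac arrays, which stood 1.07 above TBI+Zoloft (limma adjusted p = 0.0163). Pdyn, the precursor of dynorphins, whose promoter is printed above, read -0.51, -0.27 and -0.62 in TBI+Imipramine and 0.53, -0.07 and 0.79 in TBI+Prozac. Here the TBI+Imipramine arrays were the ones apart, by -1.02 from TBI (limma adjusted p = 0.0326) and by -0.85 from TBI+Zoloft (limma adjusted p = 0.0475), against -0.89 (95% interval -1.37 to -0.40) from TBI+Prozac. Slide and group cannot be told apart in the difference from TBI. Nptn, a cell adhesion protein of synapses, differed by -0.45 (-0.71 to -0.20), with its other probes at -0.09 and -0.22, and Pcdh17, a protocadherin, by -0.51 (-0.81 to -0.20). The others were Kiss1r, the kisspeptin receptor (-0.91), Gzmm, a protease of cytotoxic lymphocytes (-0.82), Xkr6 (-0.74), Fezf2 (-0.58) and Etv5 (-0.59), both transcription factors, and Galnt16, a glycosyltransferase (-0.41). Etv5 read -3.06, -3.03 and -3.07 in TBI+Prozac against -3.65, -3.49 and -3.79 in TBI+Imipramine, and its second probe differed by -0.37.

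**Figure D2:**
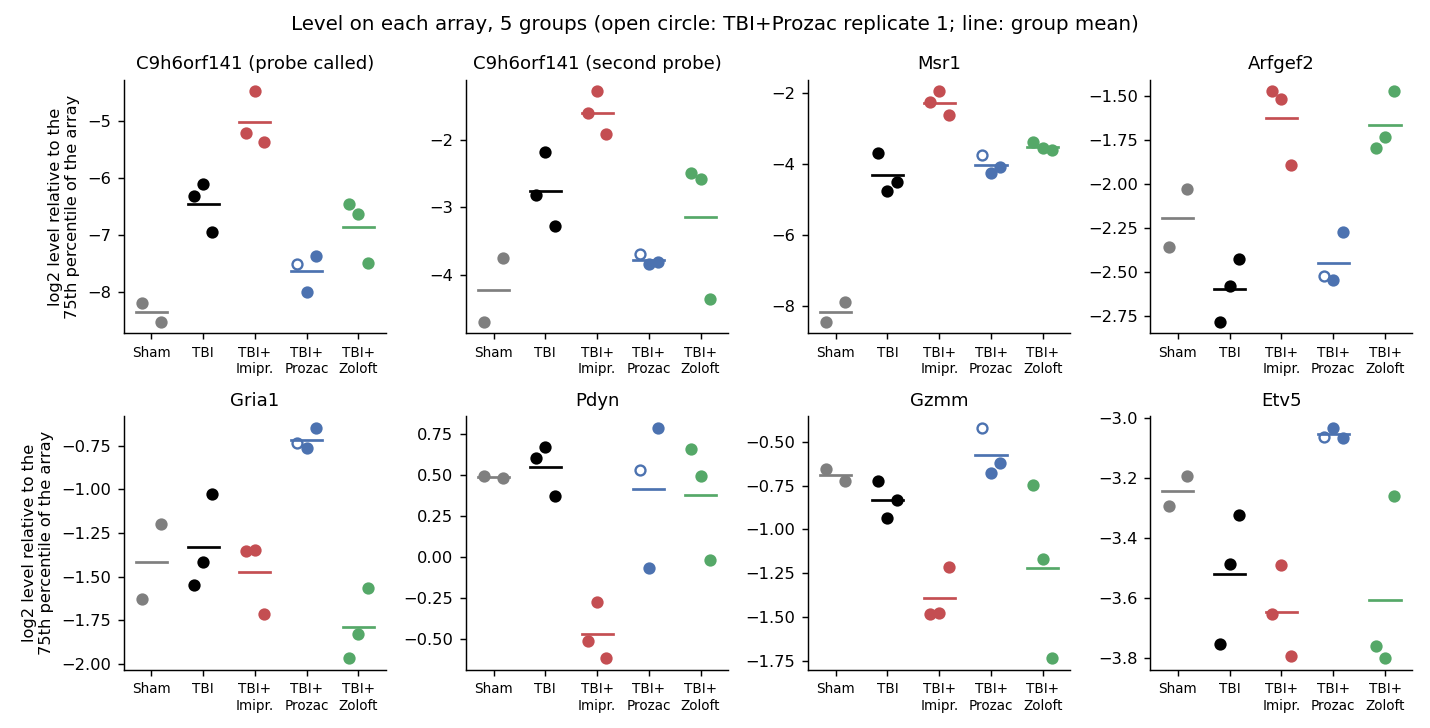
Level of 8 probes on each array (vertical axes, log2 relative to the 75th percentile of the array) in the 5 groups; points are arrays, lines are group means and the open circle is TBI+Prozac replicate 1. TBI+Imipramine and TBI+Prozac do not overlap in any panel. TBI+Prozac does not overlap TBI for Gria1 and Etv5, and TBI+Imipramine does not overlap TBI for Msr1, Arfgef2 and Pdyn. Gzmm and both probes of C9h6orf141 have the TBI arrays between the drug groups.

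The other groups help to place these differences. Of the 11 probes named on the higher side, the TBI mean was nearer to TBI+Prozac at 8 and the TBI+Zoloft mean at 7. Of the 10 on the lower side, the TBI mean was nearer to TBI+Imipramine at 7 and the TBI+Zoloft mean at 8. Over all 945 higher probes at an unadjusted p below 0.05 (limma), these means were nearer to TBI+Prozac at 95.7% and 67.1%. Over all 252 lower ones they were nearer to TBI+Prozac at 31% and 27.8%. TBI+Prozac replicate 1 lay on the slide of the TBI arrays, and its part in these shares was not tested. Against TBI, 494 probes (2.85%) passed for TBI+Imipramine and 1 (0.00577%) for TBI+Prozac, and against TBI+Zoloft 917 (5.29%) and 639 (3.69%) did (limma, adjusted p below 0.05). TBI and TBI+Imipramine arrays lay on different slides, so slide and group cannot be told apart in the first of these counts or in any difference between those groups given above. The direct comparison of the drugs gave the single call above.

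**Figure D3:**
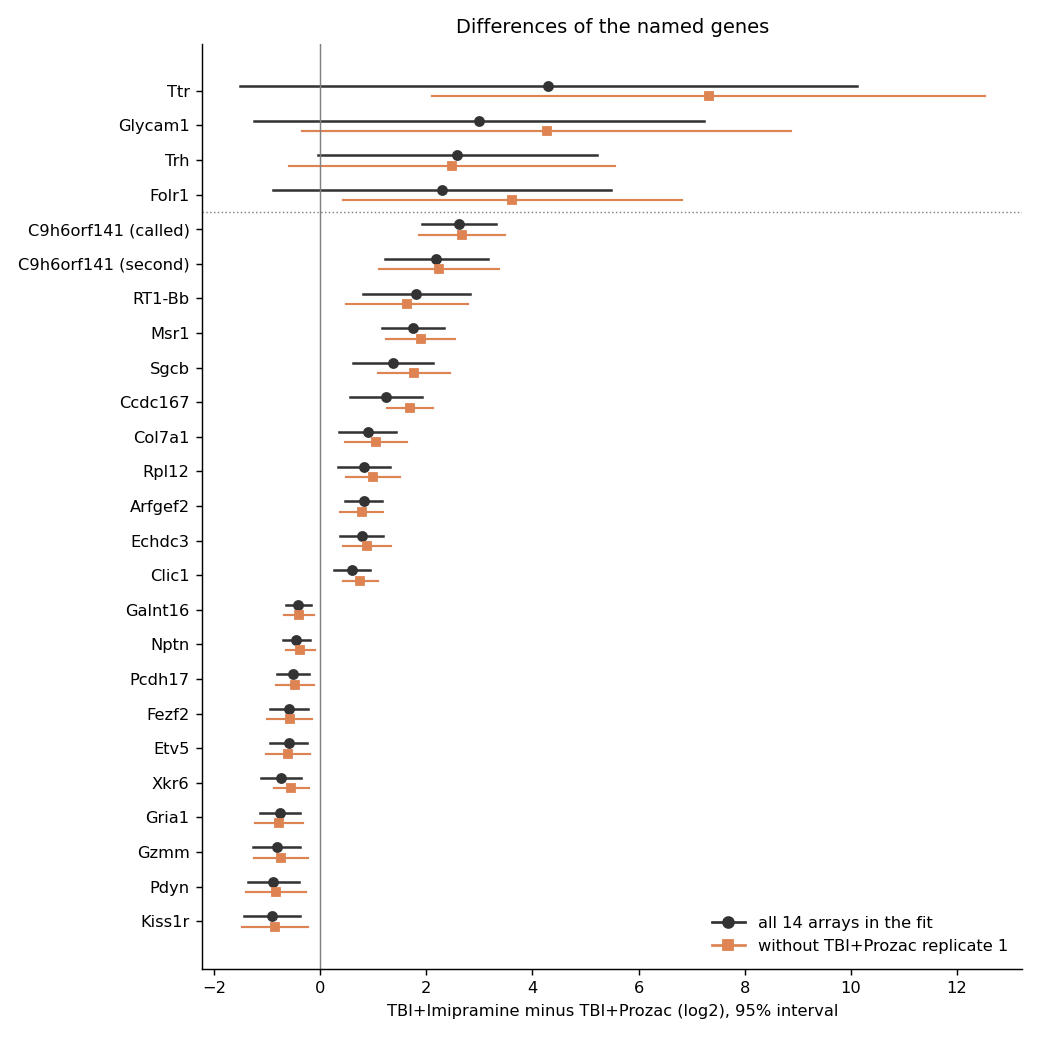
Difference between TBI+Imipramine and TBI+Prozac (log2, horizontal axis) with its 95% interval for the named genes, from all arrays (black) and without TBI+Prozac replicate 1 (orange). The genes above the dotted line are those with the largest differences, whose intervals all include 0 when every array is used. Below it each gene keeps its side in both fits, which follows from the lack of overlap between the groups. The interval of the called C9h6orf141 probe rests on TBI+Prozac signals below background.

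Among probes with a gene name and above background on all 6 arrays, the largest differences beside C9h6orf141 were at Ttr, Glycam1, Trh and Folr1, and all of these overlapped between the groups. Ttr, the thyroxine carrier made by the choroid plexus, read 6.63, 6.69 and 0.79 in TBI+Imipramine and 6.44, -2.61 and -2.63 in TBI+Prozac. Folr1, a folate receptor of the same epithelium, read 0.20, 0.38 and -4.31 against -0.88, -4.94 and -4.79. Glycam1 read 1.87, 2.24 and -4.35 against -0.51, -4.51 and -4.19. TBI+Imipramine replicates 1 and 2 and TBI+Prozac replicate 1 were high and the other 3 arrays low at each of these genes. All 6 measured choroid plexus markers of the 16 listed (Ttr, Folr1, Aqp1, Kcne2, Enpp2 and Calml4) were high on those 3 arrays, with a summed scaled signal of 108, 115 and 3.34 in TBI+Imipramine and 93.3, 1.495 and 1.99 in TBI+Prozac. The sum varied between arrays in the other groups too. It was 73.0, 107 and 2.63 in TBI+Zoloft, 1.55, 3.03 and 31.2 in TBI and 2.04 and 31.4 in Sham. The defining markers Kcnj13, Otx2, Clic6 and Kl did not pass the filter on dim probes. The median difference over the markers was 2.17, and 3.34 without TBI+Prozac replicate 1, when 4 of the 6 reached an unadjusted p below 0.05 against none with it. Trh, thyrotropin-releasing hormone, had its own order, at -0.05, 0.67 and -3.18 in TBI+Imipramine and -3.65, -3.13 and -3.53 in TBI+Prozac, a difference of 2.59 (95% interval -0.04 to 5.21).

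**Figure D4:**
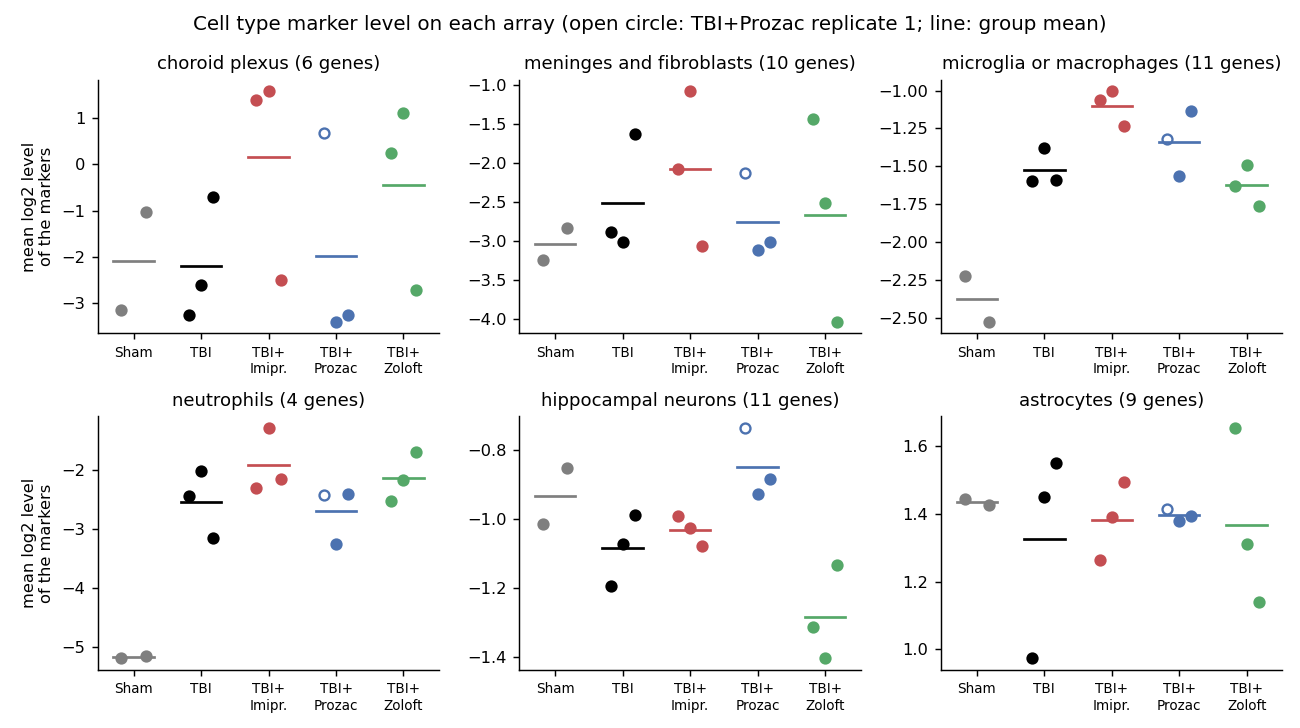
Mean log2 level of 6 lists of cell type markers (vertical axes, relative to the 75th percentile of the array) on each array of the 5 groups; points are arrays, lines group means and the open circle TBI+Prozac replicate 1. Choroid plexus markers are high on TBI+Imipramine replicates 1 and 2, TBI+Prozac replicate 1 and TBI+Zoloft replicates 1 and 2. Neuron markers are lower on the 3 TBI+Imipramine arrays than on the 3 TBI+Prozac arrays.

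No gene that the drugs are known to act on passed the threshold. Of 21 genes of serotonin synthesis, transport and receptors 9 were measured, and none reached an unadjusted p below 0.05. The serotonin transporter Slc6a4 and the enzymes Tph1 and Tph2, which are made in the raphe nuclei, did not pass the filter on dim probes. Htr1a, an inhibitory serotonin receptor, read -3.95, -3.78 and -3.98 in TBI+Imipramine and -3.70, -3.56 and -3.69 in TBI+Prozac, a difference of -0.26 (95% interval -0.79 to 0.28). Monoamine oxidases Maoa and Maob differed by -0.04 (-0.44 to 0.36) and -0.19 (-0.55 to 0.16). Of 13 adrenergic genes 9 were measured, none at an unadjusted p below 0.05, and the noradrenaline transporter Slc6a2 differed by -0.01 (-0.46 to 0.43). The 6 measured genes of histamine and muscarinic signalling were all lower in TBI+Imipramine, with a median of -0.25 and none at an unadjusted p below 0.05. Of the 6, 3 were lower with no overlap between the groups, beside 6.02% of all probes. They include the muscarinic receptors Chrm4 and Chrm3, at -0.30 (-0.65 to 0.06) and -0.22 (-0.54 to 0.10). Of 20 genes of drug metabolism and efflux 11 were measured. Ugt1a6, a glucuronosyltransferase, was the only member at an unadjusted p below 0.05, with a difference of 0.50 (0.11 to 0.89), and the arrays overlapped.

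Genes of inflammation were mostly higher in TBI+Imipramine, without a call. Of 25 chemokines, cytokines and their receptors 19 were measured, 16 of them above background on all 6 arrays. Of these 16, 15 were higher in TBI+Imipramine, with a median difference of 0.47 against 0.06 over all such probes. An unadjusted p below 0.05 was reached by 4 of the 16, all higher, beside 5.06% of all such probes, and without TBI+Prozac replicate 1 by 2, beside 2.99%. The macrophage chemokine Ccl4 read -3.35, -3.41 and -3.45 in TBI+Imipramine and -4.40, -4.52 and -4.64 in TBI+Prozac, with a difference of 1.12 (95% interval 0.30 to 1.94). Ccl3, of the same family, read -2.69, -3.36 and -3.69 against -4.50, -5.04 and -4.03, a difference of 1.27 (0.24 to 2.31). Neither overlapped between the groups. Of the 19, 4 were higher and 1 was lower with no overlap, beside 11.3% and 6.02% of all probes. The 19 include genes that were not above background on all 6 arrays, Cxcl2 among them, so this count is no support. Cxcl2, a chemokine for neutrophils, was above background on the 3 TBI+Imipramine arrays and on no TBI+Prozac array, at least 3.41-fold higher (limma adjusted p = 0.720). Its probe met the filter on dim probes in TBI+Imipramine and not in TBI+Prozac. Cxcl2 is therefore not among the 16, and its direction is no support. Il1b, the cytokine interleukin-1 beta, read -2.79, -2.70 and -3.75 against -5.35, -4.56 and -3.28, so that TBI+Prozac replicate 3 lay above TBI+Imipramine replicate 3. Cxcl10, an interferon-induced chemokine, went the other way by -0.57 (-2.31 to 1.17).

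Of 23 genes of microglia and macrophages 22 were measured, with 17 higher and a median of 0.30. Of these, 7 (Msr1, Cd68, Cd74, Lyz2, Fcgr2b, Gpnmb and Fcgr1a) reached an unadjusted p below 0.05, all higher, beside 5.46% of all probes, and 3 genes did without TBI+Prozac replicate 1, beside 3.37%. Cd68, a lysosomal protein of phagocytes, read -1.22, -1.16 and -2.27 in TBI+Imipramine and -3.29, -2.78 and -1.87 in TBI+Prozac, with TBI+Prozac replicate 3 again inside the range of the other group. Genes that mark resting microglia lay nearer to 0 or below it. P2ry12 differed by -0.32 (95% interval -1.25 to 0.61), Tmem119 by -0.31 (-1.13 to 0.52), Cx3cr1 by 0.17 (-0.24 to 0.59) and Csf1r by -0.05 (-0.46 to 0.37). A shorter list of microglia or macrophage markers, 11 of them measured, holds only genes that are also in the list above, Msr1 and Lyz2 included. Its median was 0.05. That median turned to -0.01 after quantile normalization and with the scalings by the 75th percentile of all probes and by the median. It was also -0.01 with the choroid plexus covariate described at the end. The 4 measured neutrophil markers of 10 listed had a median of 0.80. Of these, S100a8 and S100a9 did not overlap, beside 11.3% of all probes higher with no overlap. They differed by 1.14 (-0.26 to 2.54) and 1.09 (-0.10 to 2.28). The summed signal of the 4 was 1.54 to 2.96 in TBI+Imipramine and 0.567 to 1.32 in TBI+Prozac. Elane did not pass the filter on dim probes, and Mpo had no named probe. Whether the makeup of the tissue pieces had a part in these differences was not tested.

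Reactive astrocyte and injury markers lay mostly on the same side. This list is not of astrocyte genes alone and shares Ccl2 with the chemokines. Of 18 genes 17 were measured, 16 of them higher in TBI+Imipramine, with a median of 0.49, while Lcn2 differed by -0.24. An unadjusted p below 0.05 was reached by 3 of the 17, beside 5.46% of all probes. Without TBI+Prozac replicate 1 it was reached by 2, beside 3.37%. S100a6, a calcium-binding protein, read 1.28, 1.503 and 0.89 in TBI+Imipramine and 0.31, 0.20 and 0.88 in TBI+Prozac, a difference of 0.76 (95% interval 0.28 to 1.24). Lgals3 (galectin-3) differed by 0.79 (0.09 to 1.497) and the tubulin Tubb6 by 0.52 (0.03 to 1.01). Gfap, the filament of astrocytes, differed by 0.66 (-0.20 to 1.53) and overlapped. The 9 measured markers of astrocytes as a cell type had a median of -0.08, and -0.03 without TBI+Prozac replicate 1. Of the cell death genes, 15 of 17 measured calpains, caspases, Akt and Bcl-2 family members were higher, with a median of 0.25. Casp6, a caspase, differed by 0.46 (0.01 to 0.91) and Bbc3, a promoter of cell death, by 0.32 (0.03 to 0.60), both at an unadjusted p below 0.05. Without TBI+Prozac replicate 1 neither was, and Bak1, also a promoter of cell death, reached it. All 33 lysosomal genes were measured, with a median of 0.10, and 4 of them (Ctsl, Cd63, Cd68 and Lgmn) were higher at an unadjusted p below 0.05, beside 5.46% of all probes, and 3 were without TBI+Prozac replicate 1, beside 3.37%.

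Genes of synaptic transmission were mostly lower in TBI+Imipramine, also without a call. Of 15 ionotropic glutamate receptor subunits 14 were measured, 13 of them lower, with a median of -0.22. The arrays of the groups did not overlap at 7 of the 14, all lower in TBI+Imipramine, where 6.02% of all probes were lower and 11.3% higher with no overlap. Only Gria1 and Grin3a, an NMDA receptor subunit, reached an unadjusted p below 0.05, beside 1.45% of all probes, and without TBI+Prozac replicate 1 only Gria1 did, beside 0.693%. Grin3a read -4.57, -3.53 and -2.90 in TBI+Imipramine and -2.58, -2.76 and -2.55 in TBI+Prozac, a difference of -1.04 (95% interval -1.91 to -0.16), and its second probe differed by -0.93. Gria2, which sets the calcium permeability of AMPA receptors, differed by -0.25 (-0.53 to 0.03). Of 20 genes for GABA, the main inhibitory transmitter, 16 were measured and 15 were lower, with a median of -0.24 and 7 without overlap. Gad2, a GABA-producing enzyme, read -3.88, -4.09 and -4.03 against -3.16, -3.57 and -3.46, a difference of -0.60 (-1.09 to -0.11), and was the only GABA gene at an unadjusted p below 0.05, with none left without TBI+Prozac replicate 1. The mean level of the 11 measured neuron markers was -1.08 to -0.99 in TBI+Imipramine and -0.93 to -0.74 in TBI+Prozac, and the part of neuron content in the receptor genes was not tested.

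All 16 listed neuropeptides were measured. Their median was -0.21, with 12 lower and 4 higher, and -0.36 without TBI+Prozac replicate 1. Beside Pdyn, only Gal, the precursor of galanin, reached an unadjusted p below 0.05. It read 0.76, 0.87 and 0.06 in TBI+Imipramine and -0.32, -0.49 and -0.10 in TBI+Prozac, with a difference of 0.86 (95% interval 0.25 to 1.48) and of 0.83 at its second probe. Vip differed by -0.42 (-0.996 to 0.15) with no overlap, and Npy by 0.01 (-0.62 to 0.64). Of the 16, 3 were lower and 2 higher with no overlap, beside 6.02% and 11.3% of all probes. Of 25 immediate early genes, which neurons switch on with activity, 19 were measured. Nr4a1 read -1.06, -1.45 and -1.34 in TBI+Imipramine and -0.60, -0.88 and -0.80 in TBI+Prozac, a difference of -0.52 (-0.85 to -0.20), and Nr4a3 differed by -0.60 (-1.13 to -0.07). Arc did not overlap either, at -0.92 (-2.24 to 0.39), whereas Fos differed by 0.01 (-1.37 to 1.38). Of the 19, 3 were lower with no overlap, beside 6.02% of all probes. The median of this list was -0.03 and turned to 0.18 without TBI+Prozac replicate 1.

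**Figure D5:**
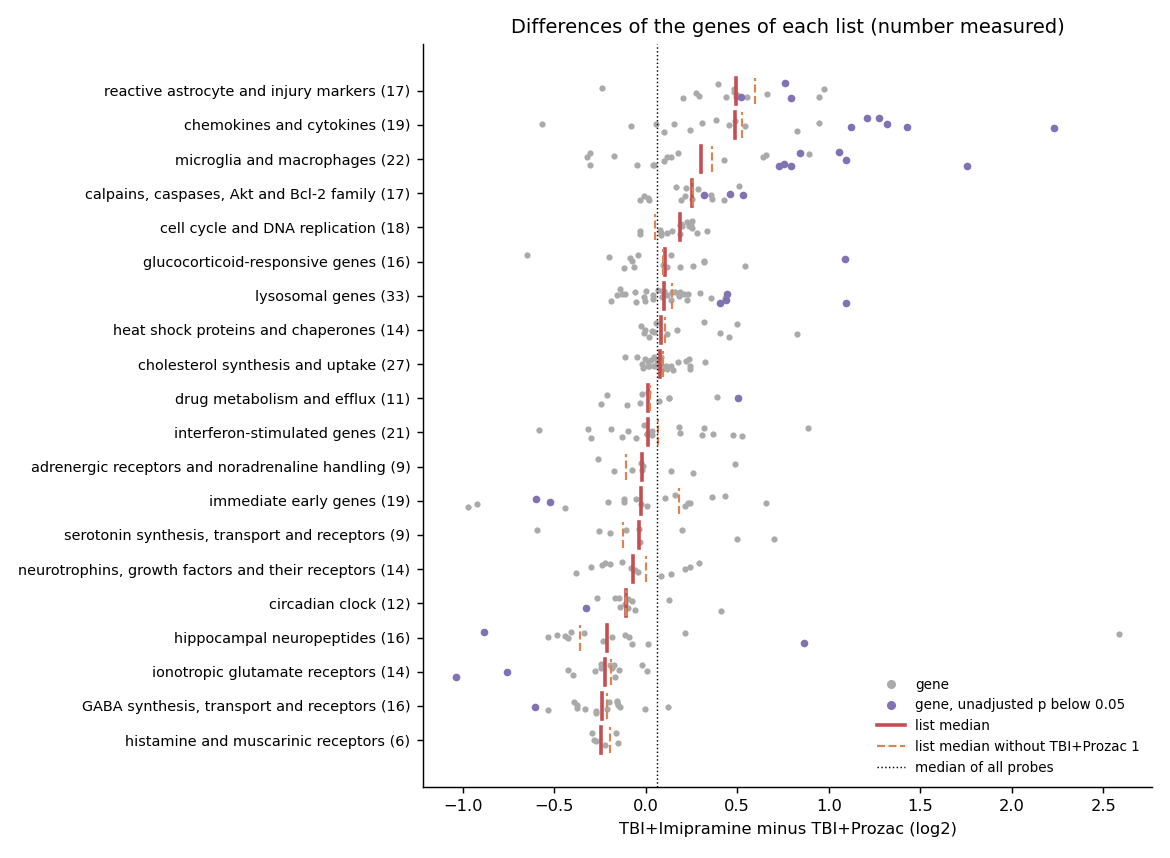
Difference between TBI+Imipramine and TBI+Prozac (log2, horizontal axis) of each measured gene in 20 lists, ordered by list median (red line; dashed orange without TBI+Prozac replicate 1). Purple points are genes at an unadjusted p below 0.05 and the dotted line is the median of all probes, 0.06; medians run from -0.25 for histamine and muscarinic receptors to 0.49 for reactive astrocyte and injury markers.

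The direction of the main list medians was kept under the other scalings, which is no support. Scaling by the 75th percentile of all probes or by the median moves all differences by 1 amount. Either took the median over all probes from 0.06 to 0.002, so list medians much further from 0 could not turn. After quantile normalization, when the median over all probes was -0.01, the medians over all measured members were 0.42 for chemokines and cytokines, 0.22 for microglia and macrophages, 0.44 for reactive astrocyte and injury markers, -0.29 for glutamate receptors and -0.30 for GABA genes. With the choroid plexus marker level of each array as a covariate, an alternative chosen after seeing the data, they were 0.47, 0.23, 0.45, -0.28 and -0.30, and the number of probes past the threshold was 0, with C9h6orf141 at an adjusted p of 0.291 (limma). For chemokines and cytokines both medians include Cxcl2, which was not above background on any TBI+Prozac array.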

How the data were processed

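Spot brightness was read from the deposited scanner files of the 14 gene expression arrays, where the authors' software, Agilent Feature Extraction 11.5.1.1, gives background-corrected intensity on a linear scale and 0 or 1 flags of another kind per spot, per the file headers. The authors' series table holds linear intensity divided by 1 constant per array. It was used as an alternative. The 14 miRNA arrays were not used here. Control and outlier-flagged spots were left out and spots of a probe averaged. Following the study's scaling, signals were put relative to the array's 75th percentile, taken over detected probes (over 0.5 of spots above background), and turned to log2. A probe was kept if detected throughout 1 or more groups (17322 of 30367). Of all probes, 18643 matched a symbol in the RefSeq table of GRCr8. All groups entered a single model (limma 3.58.1, R 4.3.3; lmFit, then eBayes), with two-sided tests, Benjamini-Hochberg adjustment and a threshold of 0.05, and was tested on simulated data. A gene in a list was represented by its brightest kept probe. For a bound on a fold, a dim array was set at its lowest signal above background where the probe read less.

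Named genes were, per direction, up to 12 that passed without overlap, filled up to 10 by unadjusted p (both among probes above background on all 6 arrays), up to 3 seen in 1 group only, and the 5 largest differences. Members and lists were chosen with earlier results of these data known. The labels do not say whether the rats of a group were housed or processed apart. In the titles all TBI+Prozac rats have lower numbers than all TBI+Imipramine rats, and the meaning of the numbers is not given. If they follow the order of handling, that order and the drug cannot be told apart. The p-values measure the spread between these arrays. The number of arrays limits the precision. Normexp used the median spot signal and was followed by quantile normalization.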

Additional observations from a re-analysis of the deposited data

How the results depend on the processing

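The count of 1 probe between the drugs became 0 with quantile normalization, the 75th percentile of all probes, the median set to 0, normexp, the authors' series table, no filter on dim probes, the filter for all 14 arrays, the 6 arrays only, the 5 arrays of 1 slide only, the replicate block and the choroid plexus covariate. It became 12 with array quality weights, and 0 to 3 on leaving out 1 array in turn. The methods' t-test gave 989 at its unadjusted threshold with a fold over 1.2, and 0 after Benjamini-Hochberg adjustment. In the limma fits with a count of 0, between 538 and 1856 probes had an unadjusted p below 0.05 (1667 at the quantile setting, 1035 with the replicate block). That number, 1197 with every array, was 719, 538 and 1300 without TBI+Imipramine replicate 1, 2 and 3 and 704, 675 and 1514 without TBI+Prozac replicate 1, 2 and 3. Same-numbered arrays correlated by 0.05, -0.14 and 0.06 in their deviations. With 3 arrays a group this cannot decide whether the numbers pair the rats. Without TBI+Prozac replicate 1 the count of 1 became 0 under the first 6 of these settings, the 5 arrays left when only the drug groups were fitted, the replicate block and the covariate. It became 19 with array quality weights and 0 to 3 on leaving out a further array, where a lone TBI+Prozac array was assumed to vary like the other groups, and the methods' t-test gave 770. The 25 named probes kept their side of 0 in every alternative run. They were chosen by their p or difference in these data, and most had no overlap between the groups. Leaving out an array could therefore not turn most of them, and their agreement is no support. Of 31 list medians, 17 kept their side. The cause of these changes was not tested. With 3 arrays a group, the median 95% interval was 0.39 wide on each side.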

Other observations

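Several lists not described above stayed near the median of all probes. The 27 measured genes of cholesterol synthesis and uptake had a median difference of 0.08, from -0.12 for Insig1 to 0.32 for Ebp, with none at an unadjusted p below 0.05. The 18 measured cell cycle genes had a median of 0.19, also with none, 0.05 without TBI+Prozac replicate 1 and -0.03 with the choroid plexus covariate. Of 12 measured circadian clock genes 10 were lower in TBI+Imipramine, with a median of -0.11. Per2, a repressor of the clock, read -2.15, -2.08 and -2.25 in TBI+Imipramine and -1.96, -1.85 and -1.69 in TBI+Prozac. The 21 measured interferon-stimulated genes had a median of 0.01, and 0.07 without TBI+Prozac replicate 1. Among glucocorticoid-responsive genes, Cdkn1c, a cell cycle inhibitor, was the only member at an unadjusted p below 0.05, with -0.24, 0.00 and -0.87 in TBI+Imipramine against -0.70, -2.11 and -1.57 in TBI+Prozac, and TBI+Prozac replicate 1 lay inside the range of the other group. Medians were 0.09 for 14 heat shock proteins and chaperones and -0.07 for 14 neurotrophins, growth factors and receptors, the last being -0.000619 without TBI+Prozac replicate 1.

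Of the remaining markers, 9 of endothelium had a median difference of 0.14, 14 of oligodendrocytes 0.02, 10 of meninges and fibroblasts 0.69, 6 of red blood cells 0.18, 5 of striatum 0.06 and 5 of thalamus and habenula -0.02. Without TBI+Prozac replicate 1 the medians were 0.13 for oligodendrocytes, 1.02 for meninges, 0.40 for red blood cells, 0.32 for striatum and 0.16 for thalamus and habenula, the last with its sign turned. With the choroid plexus covariate they were -0.01 for endothelium, -0.18 for oligodendrocytes, -0.15 for meninges, -0.22 for red blood cells, -0.02 for striatum and -0.08 for thalamus and habenula.

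Above background on all arrays of 1 drug group and on none of the other were 30 probes for TBI+Imipramine and 6 for TBI+Prozac. Those with a gene name and an unadjusted p below 0.05 passed the filter through the brighter group and are given as bounds, a choice made after their values were seen. In TBI+Imipramine 8 genes were at least 1.36-fold to 3.41-fold higher, among them the chemokine Cxcl2 (3.41), Klra17, a killer cell lectin-like receptor (3.38), C9h6orf141 (2.997), Kpna3, an importin (2.94), and RT1-CE12, of the class I histocompatibility complex (2.25). In TBI+Prozac 4 genes were at least 1.99-fold to 2.28-fold higher, among them Pde11a, a phosphodiesterase (2.28), and Tacr3, the neurokinin B receptor (2.15). Beside C9h6orf141 none passed, with limma adjusted p from 0.311 to 0.720. By mean correlation across probes, TBI+Prozac replicate 1 was closest to the TBI arrays, TBI+Prozac replicate 3 to TBI+Imipramine and TBI+Imipramine replicate 3 to TBI+Prozac.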
